A study of Homo sapiens with 9 samples.

Results

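CTCF and cohesin together shape how chromosomes fold, and the expression of their genes was examined in VCaP, a widely used line of human prostate cancer cells, after knockdown of the long non-coding RNA *IGF1R-AS1*. The genes were chosen by name and function and not by a cut on their measured values, though earlier results of these data were known. They comprise *CTCF*, the cohesin ring genes *SMC1A*, *SMC3* and *RAD21*, the genes of the alternative ring-bound subunits *STAG1* and *STAG2*, the loader *NIPBL*, the release factor *WAPL* and the regulators *PDS5A* and *PDS5B*. These are 10 of the 19918 gene symbols counted in each library, and all 10 passed the filter on low counts that left 12810 genes for testing. The title of the series concerns long-range chromatin interactions, so the comparison asks whether RNA levels of the loop-forming machinery differ between knockdown and control cells. Protein was not measured here. By western blot in VCaP cells, the study reports unchanged protein abundance of CTCF and SMC1A after *IGF1R-AS1* knockdown.

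The series held 9 RNA-seq libraries in 3 groups of 3. Transfection used 100 pmol of siRNA and RNAiMAX, a lipid reagent, in the reverse format, in which cells are plated onto the complexes, and cells were collected at 72 h. The si025 and si033 groups each received a different siRNA against exon 1 of *IGF1R-AS1*, and the control group received a control siRNA under the same conditions. Libraries were made from 1.3 µg of total RNA per sample with a kit that keeps the strand of the transcript. All cells were of a single line, the labels do not say whether replicates were separate cultures, whereas the study describes its knockdown RNA-seq replicates as biological, and how far *IGF1R-AS1* itself was depleted was not analysed here. *P* values describe the spread between these libraries.

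Cohesin is a ring-shaped protein complex that entraps DNA. SMC1A and SMC3 are long coiled-coil ATPases that join at a hinge, RAD21 closes the ring between their heads, and STAG1 or STAG2 binds RAD21. NIPBL stimulates loading of the ring and its movement along DNA, which draws out loops. WAPL releases cohesin from chromatin, and the PDS5 proteins take part both in release and in the maintenance of cohesion. CTCF is a zinc finger protein bound to many genomic sites, where it halts the moving ring and so sets the ends of many loops. The same ring holds sister chromatids together from S phase to mitosis, so dividing cells such as cancer lines need it for both folding and division.

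The siRNA sequences are shown because both siRNAs were aimed at the same transcript, and the responses described below differed between them. They come from the study's own list of oligonucleotides, written 5′ to 3′, and the labels do not say which of the targeting sequences is si025 and which is si033. Capitals mark the letters of the longest runs that an siRNA, without its final uu where present, shares with the same strand of the 54 GENCODE coding transcripts of the 10 genes. Where such runs overlap, their capitals join, so a capital stretch can be longer than any single run.
siRNA negative control: uagcgaCUAAACACAUCAa
IGF1R-AS1-siRNA-1#: agaaagCACUGAAGACCUAuu
IGF1R-AS1-siRNA-2#: ccguauugCUCAGUGGAAAuu
The longest such run was 11 bases, in *STAG1*, for the siRNA numbered 2#. It was 9 bases for the siRNA numbered 1#, in *STAG1* and *STAG2*, and 9 bases for the control siRNA, in *NIPBL* and *WAPL*. On the opposite strand no run exceeded 10 bases. No member transcript thus held the full target sequence of any of these siRNAs. What shorter matches do was not tested.

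Libraries held between 11649811 and 28492259 counts, and 14735 to 15474 genes had at least 1 count. Replicate pairs differed by more than counting noise, with a chi-square of 1.72 to 5.09 per degree of freedom, so no pair was treated as the same library. The prostate luminal markers *KLK3*, *KLK2*, *TMPRSS2*, *HOXB13*, *FOLH1* and *ERG* each reached at least 1 CPM (counts scaled to a common library size by TMM) in control cells. The endothelial marker *CDH5* and the T cell marker *CD3E* were at 0 in every library. The summed level of 5 fibroblast markers was 16.4 to 18.9 CPM in control, 36.5 to 43.9 CPM with si025 and 8.90 to 11.2 CPM with si033. Most of this was *LUM*, while the fibroblast collagen gene *COL1A2* was at 0 in all control and si025 libraries. The summed level was 0.786 to 1.09, 1.32 to 2.26 and 0.619 to 1.15 CPM for 3 endothelial markers in control, si025 and si033, and 1.31 to 1.67, 0.992 to 1.33 and 0.619 to 1.28 CPM for 3 leukocyte markers. Their part in the results on cohesin genes was not tested. In bulk RNA, fewer cells of a kind and less RNA per cell cannot be told apart.

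All members were well covered. The lowest member count was 988, for *STAG1* in si033 replicate 1, which carries a counting error of 3.18%, and the highest was 31287, for *RAD21* in si033 replicate 3, with a counting error of 0.565%. Compared per kilobase of exon, which allows levels of different genes to be set side by side, *RAD21* stood far above the other members in control cells. Its level of 311 ± 6.70 CPM per kb (SD, n = 3) was 6.02 times that of *SMC3*, the next in order, and 23.5 times that of *NIPBL*, the lowest. *SMC3* stood at 51.6 ± 2.05, *PDS5A* at 44.9 ± 0.424, *STAG2* at 31.9 ± 0.365, *CTCF* at 31.6 ± 1.13 and *SMC1A* at 23.7 ± 0.457 CPM per kb. *WAPL* at 17.6 ± 0.0716, *PDS5B* at 15.2 ± 0.451, *STAG1* at 14.8 ± 0.664 and *NIPBL* at 13.2 ± 0.423 CPM per kb completed the order. The ranges of *STAG2* and *CTCF* overlapped, as did those of *PDS5B* and *STAG1*, and the other neighbours in this order did not overlap. The order rests on a length that merges all annotated exons of a gene, and levels of single transcripts were not measured.

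**Figure D1:**
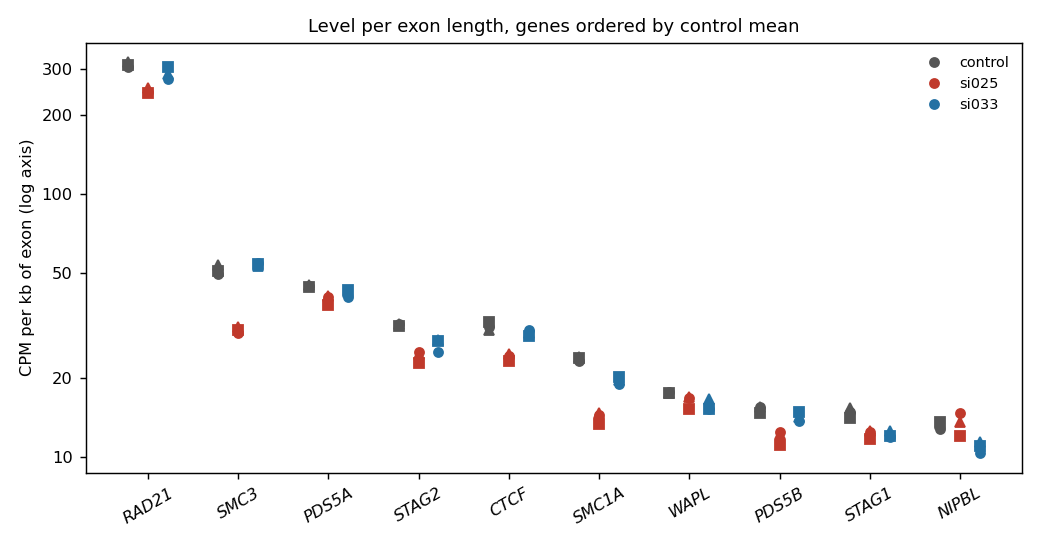
Level of the 10 genes in CPM per kb of exon on a log axis, ordered by the control mean, with 1 point per library (circle, square and triangle for replicates 1, 2 and 3) and colours for the groups. *RAD21* lies above 240 CPM per kb in all 9 libraries, and *SMC3* falls below *PDS5A* with si025 but not with si033.

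The order differed in part after transfection. With si025, *PDS5A* at 39.9 ± 1.64 CPM per kb lay above *SMC3* at 30.5 ± 0.803, and *WAPL* at 16.3 ± 0.908 lay above *SMC1A* at 14.2 ± 0.681, without overlap between the libraries of either pair. *SMC1A*, *NIPBL*, *STAG1* and *PDS5B* then formed a run of overlapping neighbours between 14.2 and 12.0 CPM per kb. With si033 the order was that of control except that *CTCF* at 29.7 ± 0.858 lay above *STAG2* at 27.0 ± 1.53 CPM per kb. In all 3 groups *RAD21* ranked highest.

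Against control, 8 of the 10 members fell with si025 and none rose, and 6 fell with si033 and none rose. The largest changes among members were those of *SMC1A* and *SMC3* with si025, at -0.74 and -0.76 on the log2 scale. These counts need to be read against a transcriptome in which most genes differed. A gene is referred to as called when its adjusted *p* value was under 0.05 in edgeR's quasi-likelihood test with Benjamini-Hochberg adjustment over all 12810 genes, and every adjusted *p* value given for a gene comes from that test. With si025, 61.7% of all genes tested were called, 28.8% lower and 32.9% higher. With si033, 54.8% were called, 27.8% lower and 26.9% higher. The median log2 fold change of the members was -0.34 with si025 and -0.13 with si033, beside 0.02 and 0.00 over all genes. Both comparisons share the 3 control libraries and are not independent of each other.

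**Figure D2:**
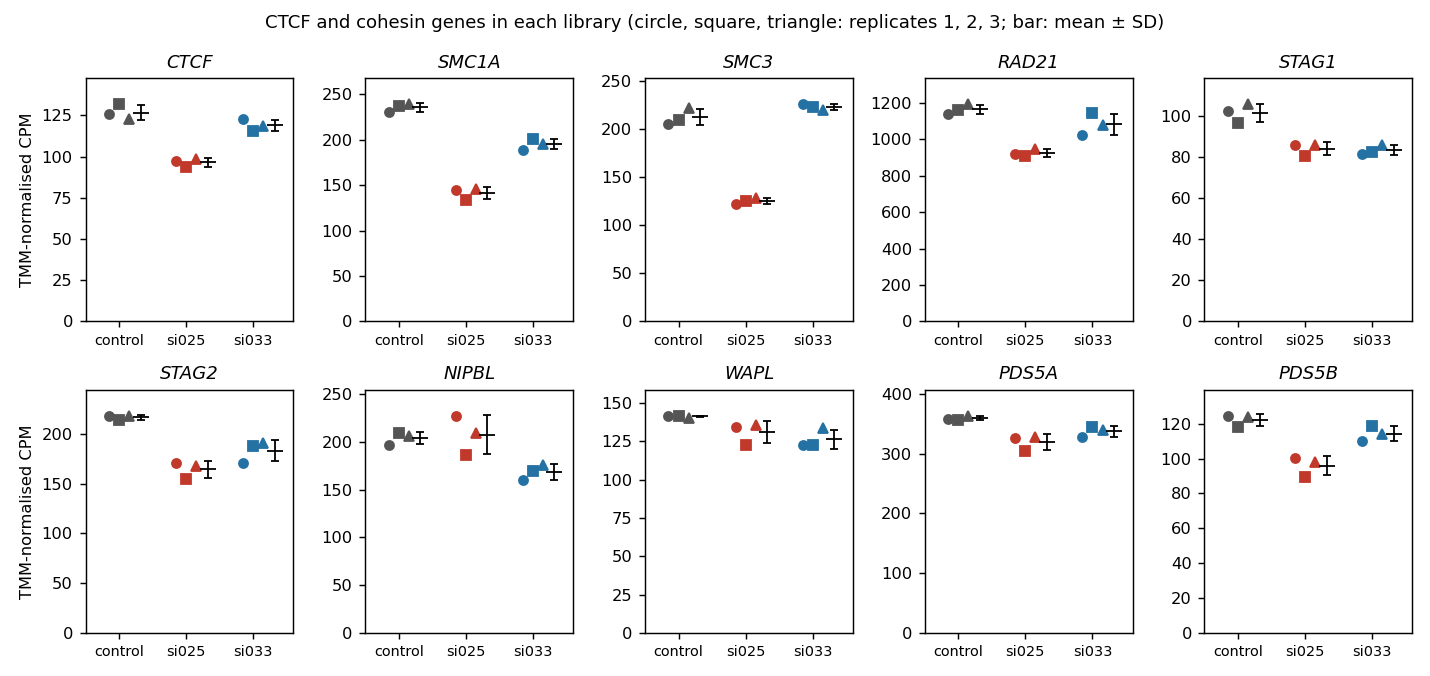
TMM-normalised CPM of each of the 10 genes in the 9 libraries, from 0, with circle, square and triangle for replicates 1, 2 and 3 and a bar for the mean ± SD of 3 libraries. The si025 libraries lie below all control libraries for every gene except *NIPBL*, whose si025 points surround the control points.

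*CTCF* was lower with si025. The gene lies on chromosome 16, plus strand, at chr16:67562407-67639185 (hg38). Its levels were 97.5, 93.4 and 98.7 CPM with si025, 122, 116 and 119 CPM with si033 and 126, 132 and 123 CPM in control. All si025 libraries lay below the other 6, and si033 replicate 1 lay just under the lowest control library. Against control, the log2 fold change was -0.39 ± 0.05 (SE, adjusted *p* = 2.02e-07) with si025. With si033 it was -0.09 ± 0.05 (adjusted *p* = 0.117), with a 95% interval from -0.19 to 0.01, so a fall of that size could not be told from no change. Under offsets for gene length and GC content, the si033 value of -0.10 was called (adjusted *p* = 0.0299). The direct difference, si025 minus si033, was -0.30 ± 0.05 (adjusted *p* = 8.40e-06).

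The genes of the ring's ATPases both fell with si025, by 0.74 and 0.76, and differed in their values with si033. With offsets for length and GC content the si025 values lay farther apart, at -0.87 for *SMC1A* and -0.73 for *SMC3*. *SMC1A*, on the minus strand of the X chromosome at chrX:53374149-53422728, measured 230, 238 and 239 CPM in control, 144, 133 and 146 CPM with si025 and 189, 200 and 196 CPM with si033. The groups formed 3 separate levels, highest in control and lowest with si025. For *SMC1A* the log2 fold change was -0.74 ± 0.05 (adjusted *p* = 2.45e-12) with si025 and -0.27 ± 0.04 (adjusted *p* = 1.95e-05) with si033. *SMC3*, on the plus strand of chromosome 10 at chr10:110567691-110604634, measured 206, 209 and 222 CPM in control, 122, 125 and 129 CPM with si025 and 225, 223 and 220 CPM with si033. The si025 libraries of *SMC3* lay below the remaining libraries by a wide margin, whereas si033 and control overlapped. Its log2 fold change was -0.76 ± 0.04 (adjusted *p* = 1.15e-12) with si025 and 0.07 ± 0.04 (adjusted *p* = 0.205) with si033, with a 95% interval from -0.02 to 0.16 for the latter. With offsets for length and GC content the si033 difference of *SMC3* was 0.13 and called higher (adjusted *p* = 0.00227). The values of si025 minus si033 were -0.83 ± 0.04 for *SMC3* (adjusted *p* = 1.73e-13) and -0.47 ± 0.05 for *SMC1A* (adjusted *p* = 6.88e-09).

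*RAD21*, whose protein closes the ring and is cut by separase at anaphase, lies on chromosome 8. Its levels were 1142, 1161 and 1192 CPM in control, 920, 909 and 948 CPM with si025 and 1026, 1143 and 1080 CPM with si033. The si025 libraries stood below all others, and the si033 libraries overlapped control through replicate 2. The log2 fold change was -0.33 ± 0.04 (adjusted *p* = 3.14e-07) with si025 and -0.11 ± 0.04 (adjusted *p* = 0.0346) with si033. The si033 call was lost under 6 of 17 alternative settings, among them the removal of si033 replicate 1 (-0.06, adjusted *p* = 0.234) or of any control library. The siRNAs differed by -0.23 ± 0.04 (adjusted *p* = 5.74e-05). Read pairs from *RAD21* and *SMC3* that also match their processed pseudogenes would not have been counted, so the levels of both genes are less certain.

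The STAG subunits, which are alternatives within the ring, both fell with each siRNA. *STAG1*, at chr3:136336235-136752412 on the minus strand, measured 102, 96.4 and 105 CPM in control, 85.7, 80.4 and 85.9 CPM with si025 and 81.4, 82.2 and 85.8 CPM with si033. Control lay above both siRNA groups, and the siRNA groups overlapped each other. Its log2 fold change was -0.27 ± 0.05 (adjusted *p* = 5.41e-05) with si025 and -0.28 ± 0.05 (adjusted *p* = 5.09e-05) with si033, and si025 minus si033 was 0.01, with a 95% interval from -0.10 to 0.11. *STAG2*, at chrX:123960560-124102656 on the plus strand, is recurrently mutated in several cancers. It measured 218, 214 and 218 CPM in control, 170, 155 and 167 CPM with si025 and 171, 188 and 190 CPM with si033. Again the siRNA libraries all lay below control, and the si025 libraries lay below the si033 libraries by a narrow margin at the nearest point. For *STAG2* the log2 fold change was -0.40 ± 0.05 (adjusted *p* = 1.84e-07) with si025 and -0.24 ± 0.05 (adjusted *p* = 2.07e-04) with si033. The siRNAs differed by -0.16 ± 0.05 (adjusted *p* = 0.00643), a call that was lost without si033 replicate 3 (adjusted *p* = 0.0547).

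*NIPBL* was the member called higher with si025 than with si033. The loader gene lies at chr5:36876759-37065819 on the plus strand. It measured 197, 209 and 206 CPM in control, 227, 186 and 209 CPM with si025 and 160, 169 and 176 CPM with si033. The si025 libraries spread around control on both sides, and the si033 libraries lay below all others. Against control, the log2 fold change was 0.02 ± 0.06 (adjusted *p* = 0.784) with si025, with a 95% interval from -0.10 to 0.14, and its sign was reversed under 3 of 17 alternatives. With si033 it was -0.27 ± 0.06 (adjusted *p* = 3.24e-04). The si025 libraries were higher than the si033 libraries by 0.29 ± 0.06 (adjusted *p* = 1.19e-04).

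*WAPL* and the PDS5 genes, which act in release of the ring, changed less in size than *SMC1A* and *SMC3* with si025. *WAPL*, at chr10:86435256-86521816 on the minus strand, measured 142, 142 and 141 CPM in control, 135, 123 and 136 CPM with si025 and 123, 122 and 134 CPM with si033. All siRNA libraries lay below control, whose SD of 0.575 CPM was small, and the siRNA groups overlapped. The log2 fold change of *WAPL* was -0.11 ± 0.05 (adjusted *p* = 0.0609) with si025, a value that was called under 7 of 17 alternatives. With si033 it was -0.16 ± 0.05 (adjusted *p* = 0.0110), a call lost without si033 replicate 1 (adjusted *p* = 0.0524). For *WAPL*, si025 minus si033 was 0.05, with a 95% interval from -0.06 to 0.15.

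*PDS5A*, at chr4:39822863-39977956 on the minus strand, measured 358, 357 and 363 CPM in control, 326, 304 and 328 CPM with si025 and 327, 345 and 339 CPM with si033. Both siRNA groups lay below control and overlapped each other. The log2 fold change was -0.17 ± 0.04 (adjusted *p* = 0.00124) with si025 and -0.09 ± 0.04 (adjusted *p* = 0.0692) with si033, and the latter was called under 3 of 17 alternatives. *PDS5B*, at chr13:32586427-32778020 on the plus strand, measured 124, 118 and 124 CPM in control, 100, 89.5 and 98.3 CPM with si025 and 110, 119 and 114 CPM with si033. Here si025 lay below both other groups, which overlapped. The log2 fold change of *PDS5B* was -0.35 ± 0.05 (adjusted *p* = 2.71e-06) with si025 and -0.10 ± 0.05 (adjusted *p* = 0.110) with si033. The siRNAs differed by -0.25 ± 0.05 for *PDS5B* (adjusted *p* = 1.61e-04) and by -0.08 ± 0.04 for *PDS5A* (adjusted *p* = 0.111), the latter with a 95% interval from -0.17 to 0.01 and called under 2 alternatives.

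**Figure D3:**
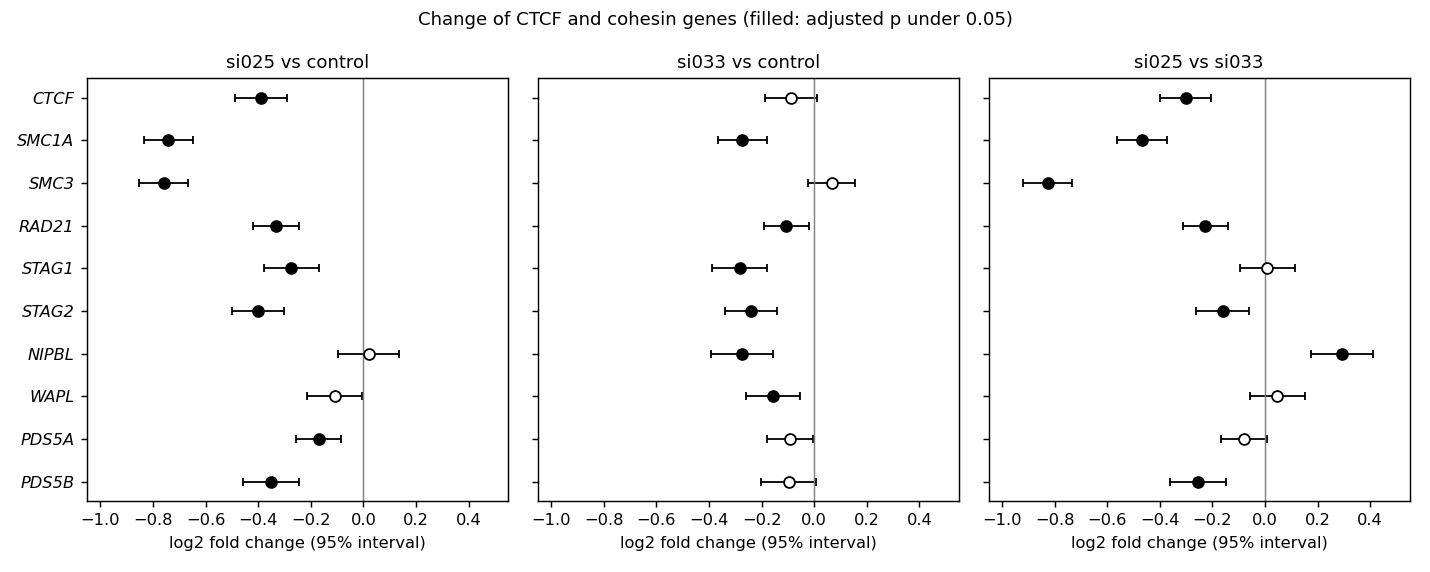
Log2 fold change of the 10 genes with its 95% interval in the 3 comparisons, where filled points had an adjusted *p* value under 0.05. With si025 the points of *SMC1A* and *SMC3* lie farthest left, and in the comparison of the siRNAs *NIPBL* is the filled point to the right of 0.

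In the direct comparison of the siRNAs, 6 members were lower with si025 than with si033, *NIPBL* was higher, and *STAG1*, *WAPL* and *PDS5A* were not called. Over all genes, 60.9% were called in this comparison, 29.7% lower and 31.2% higher. The median log2 difference of the members was -0.19, beside -0.00 over all genes. The members that were lower with si025 were *CTCF*, the 3 ring genes, *STAG2* and *PDS5B*, by 0.16 to 0.83 on the log2 scale.

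Ratios between partner genes within a library do not depend on scaling between libraries, but they can carry effects of gene length and GC content. They were not recomputed with the offsets for these. With those offsets the si025 fold changes on the log2 scale were -0.87 for *SMC1A* and -0.73 for *SMC3*, beside -0.74 and -0.76 without them. The ratio of *RAD21* to *SMC3* counts per kb was 6.10, 6.08 and 5.90 in control, 8.26, 7.96 and 8.08 with si025 and 4.99, 5.63 and 5.39 with si033. No 2 groups overlapped, with si025 highest and si033 lowest. The ratio of *SMC1A* to *SMC3*, partners in equal number within the ring, was 0.464, 0.470 and 0.446 in control, 0.489, 0.441 and 0.469 with si025 and 0.348, 0.372 and 0.369 with si033. Here si025 overlapped control, and si033 lay below both. A two-sided exact permutation test of 3 libraries against 3 cannot give a *p* value below 0.10. That value was reached for *RAD21* to *SMC3* with both siRNAs and for *SMC1A* to *SMC3* with si033, whereas *SMC1A* to *SMC3* with si025 gave an exact *p* of 0.9.

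The remaining ratios set alternative subunits, paralogues and opposing regulators against each other. *STAG2* to *STAG1* was 2.16 ± 0.0743 (SD, n = 3) in control, 1.97 ± 0.0301 with si025 and 2.22 ± 0.0910 with si033. *PDS5A* to *PDS5B* was 2.95 ± 0.0768 in control, 3.33 ± 0.0719 with si025 and 2.95 ± 0.0388 with si033. *NIPBL* to *WAPL*, loader to release factor, was 0.752 ± 0.0256 in control, 0.824 ± 0.0485 with si025 and 0.695 ± 0.0219 with si033. The si025 libraries did not overlap control in any of these 3 ratios, and si033 did not overlap control in the last of them. Over the 10 tests the values at the smallest possible *p* became 0.143 after Benjamini-Hochberg adjustment of the exact permutation *p* values, so none passed 0.05. The 2 other si033 tests gave exact *p* values of 0.4 for *STAG2* to *STAG1* and 1 for *PDS5A* to *PDS5B*.

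**Figure D4:**
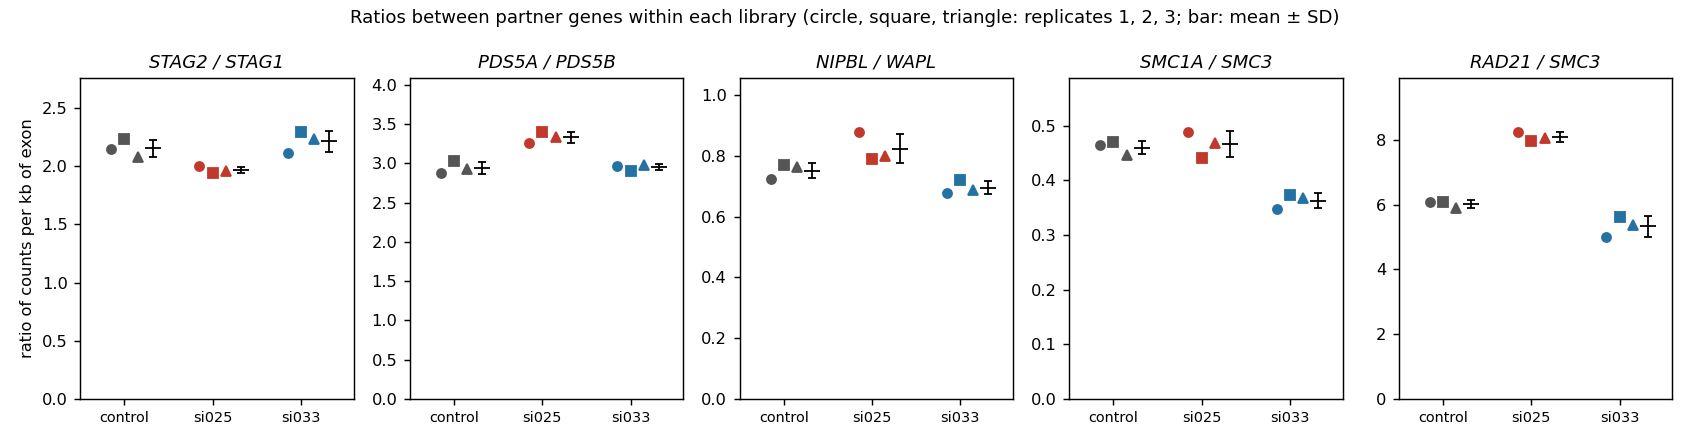
Ratio of counts per kb of exon between partner genes in each of the 9 libraries, from 0, with circle, square and triangle for replicates 1, 2 and 3 and a bar for the mean ± SD. *RAD21* to *SMC3* is highest with si025, and *SMC1A* to *SMC3* is lowest with si033.

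Promoter sequences are shown for *CTCF* and for the partners *SMC1A* and *SMC3*, which both fell with si025 while only *SMC1A* was called lower with si033. They are RefSeq windows of 300 bases of GRCh38.p14, printed on the strand of the gene, and 9 of the 10 members had at least 1 window. The position of the annotated start is counted as 0. *CTCF* is at chr16:67562276-67562575 (plus strand), *SMC1A* at chrX:53422605-53422904 (minus strand, the downstream of 2 annotated starts) and *SMC3* at chr10:110567445-110567744 (plus strand). Capitals mark matches to the motifs searched on both strands, which were CACGTG (the E-box bound by MYC and MAX), TTTGGCGC or TTTCCCGC (E2F) and GCCATNTTG (YY1, added after the sequences had been seen).
CTCF: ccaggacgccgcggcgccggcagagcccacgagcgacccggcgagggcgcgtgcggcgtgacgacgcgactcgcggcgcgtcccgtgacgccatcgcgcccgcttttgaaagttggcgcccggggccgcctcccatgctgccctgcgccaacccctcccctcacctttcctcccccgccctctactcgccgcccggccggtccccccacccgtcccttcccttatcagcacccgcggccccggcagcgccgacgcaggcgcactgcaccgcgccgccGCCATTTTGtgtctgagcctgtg
SMC1A: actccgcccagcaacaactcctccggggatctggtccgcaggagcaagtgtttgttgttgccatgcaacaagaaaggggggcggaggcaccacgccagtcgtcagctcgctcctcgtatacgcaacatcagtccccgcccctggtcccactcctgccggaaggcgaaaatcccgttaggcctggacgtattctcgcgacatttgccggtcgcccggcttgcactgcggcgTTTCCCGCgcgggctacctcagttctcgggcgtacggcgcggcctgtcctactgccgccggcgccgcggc
SMC3: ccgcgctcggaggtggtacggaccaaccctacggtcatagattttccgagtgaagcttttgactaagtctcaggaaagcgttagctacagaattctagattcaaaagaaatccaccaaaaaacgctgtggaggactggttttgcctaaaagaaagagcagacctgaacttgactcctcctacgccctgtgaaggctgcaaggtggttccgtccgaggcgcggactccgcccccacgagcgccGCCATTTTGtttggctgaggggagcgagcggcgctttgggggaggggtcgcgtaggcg
The *CTCF* and *SMC3* windows each held the YY1 letters, from 27 to 35 in *CTCF* and from -8 to 0 in *SMC3*, and *PDS5B* held them from 0 to 8. The E2F letters were found in *SMC1A* from -20 to -13, and also in a window each of *STAG1*, *STAG2* and *NIPBL*. No member window held CACGTG. Over all 35116 windows of this length, 2.92% held the YY1 letters, 2.27% an E2F word and 7.26% CACGTG. These are shares of single windows, whereas some members had more than 1 window. The YY1 word was also chosen with the sequences in view. The number of members with a match therefore cannot be set against these shares. The 3 members with YY1 letters were all lower with si025 than with si033, as were *SMC1A* and *STAG2*, whose windows lacked them. A match of letters is a description and not a bound site.

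The other genes of chromosome structure were taken from lists made by function. Their counts stand beside those of all genes tested. With si025, 28.8% of all genes fell and 32.9% rose, and with si033 27.8% fell and 26.9% rose. Of 12 cohesin cofactors tested, out of 13 listed, 8 fell and 1 rose with si025, and 9 fell and 1 rose with si033. The gene that rose with both was *HDAC8*, which removes acetyl groups from SMC3 (0.34 and 0.26 on the log2 scale). *ESCO2*, the enzyme that acetylates SMC3 in S phase, fell from 30.9 ± 3.15 CPM (SD, n = 3) in control to 15.2 ± 0.938 with si025 and 24.0 ± 1.81 with si033. *SGO2*, a shugoshin that protects centromeric cohesion, fell from 73.5 ± 3.43 CPM to 49.8 ± 1.96 and 36.9 ± 3.31. On the log2 scale the change of *SGO2* was -0.57 with si025 and -0.98 with si033, and that of its relative *SGO1* was -0.55 and -0.37. Cofactors of germ cells lay near the detection limit. *STAG3* changed by -1.69 and *SMC1B* by -1.37 with si025 (adjusted *p* = 1.52e-04 and 4.19e-04), from 1.05 and 1.51 CPM in control, and neither was called with si033. *REC8* was called lower with si033 (-0.44, adjusted *p* = 0.0476), a call lost under 8 of 17 alternatives.

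Of 8 factors that couple cohesion to DNA replication, 7 fell with si025, and with si033 7 fell and 1, *CHTF8*, rose (0.17, or 0.11 with the offsets). *WDHD1*, a replisome adaptor, fell from 66.6 ± 2.35 CPM (SD, n = 3) to 20.3 ± 0.813 with si025 and 52.0 ± 1.32 with si033, with a log2 fold change of -1.73 with si025. *CLSPN*, which carries the replication checkpoint signal, fell by 0.84 with si025 and by 0.58 with si033. *DDX11*, a helicase, fell by 0.78 and 0.38, and *TIPIN*, of the fork protection complex, fell by 0.56 and 0.54.

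Condensin is the SMC complex that compacts chromosomes for mitosis, and all 8 of its listed genes fell with both siRNAs. Over 17 alternatives, 8 of them were called with si025 and 7 to 8 with si033. *SMC2* and *SMC4*, the condensin counterparts of *SMC1A* and *SMC3*, fell by 0.66 and 0.58 with si025. With si033 they fell by 0.39 and 0.60. *NCAPD2* went from 284 ± 13.3 CPM (SD, n = 3) in control to 156 ± 4.37 with si025 and 196 ± 6.68 with si033. *NCAPG* fell by 0.75 and 0.52. For condensin the median stood at -0.62 (si025) and -0.41 (si033), and both lay below the corresponding medians of the CTCF and cohesin genes. This is a description, and no test of the lists against each other was made.

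The SMC5/6 complex acts in DNA repair. Of its 7 genes tested, out of 8 listed, 5 fell and 1, *NSMCE1*, rose with si025 (0.33), and 3 fell with si033. Over all genes, 27.8% fell with si033. *SLF2*, which helps to recruit the complex, fell from 40.0 ± 1.04 CPM (SD, n = 3) to 20.8 ± 2.33 with si025 and measured 43.2 ± 4.86 with si033. Its log2 fold change was -0.96 with si025 and 0.12 with si033 (adjusted *p* = 0.167). *SLF1* fell by 0.56 and 0.39, and *SMC5* fell by 0.53 and 0.25, the latter by 0.17 with the offsets. *SMC6* fell by 0.31 with si025, and its si033 call (-0.16, adjusted *p* = 0.0494) was lost under 16 of 17 alternatives. Without control replicate 3, 1 gene of this complex was called with si033 in place of 3.

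Among other factors of chromosome architecture, 11 of 12 listed were tested. With si025, 8 fell and 1 rose, and with si033 4 fell and 4 rose. Over all genes, 27.8% fell and 26.9% rose with si033, so the si033 counts mark nothing particular to this list. *TOP2A*, the topoisomerase of dividing cells, fell by 0.54 and 0.40, and *NPM1*, a nucleolar chaperone reported to bind CTCF, fell by 0.50 and 0.17. *PARP1* fell by 0.11 with si025, a call lost without control replicate 3 and a value of -0.19 with the offsets, and by 0.37 with si033. *PATZ1*, a zinc finger factor, rose by 0.33 and 0.23, or by 0.12 and 0.14 with the offsets. *LDB1* was called lower with si025 (-0.25, from -0.46 to -0.22 over 17 alternatives). With si033, *LDB1* rose by 0.21, or by 0.13 with the offsets, and *ZNF143* rose by 0.18, a call lost under 5 of 17 alternatives. *YY1*, which also joins promoters and enhancers, likewise moved in opposite directions. It measured 138 ± 0.918 CPM (SD, n = 3) in control, 122 ± 3.19 with si025 and 164 ± 7.35 with si033, with log2 fold changes of -0.18 (adjusted *p* = 0.00168) and 0.25 (adjusted *p* = 7.45e-05). The si025 value of *YY1* was -0.28 with the offsets. *CTCFL*, the germ cell relative of *CTCF*, did not pass the filter on low counts, and neither did *RAD21L1* or *NSMCE3*.

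**Figure D5:**
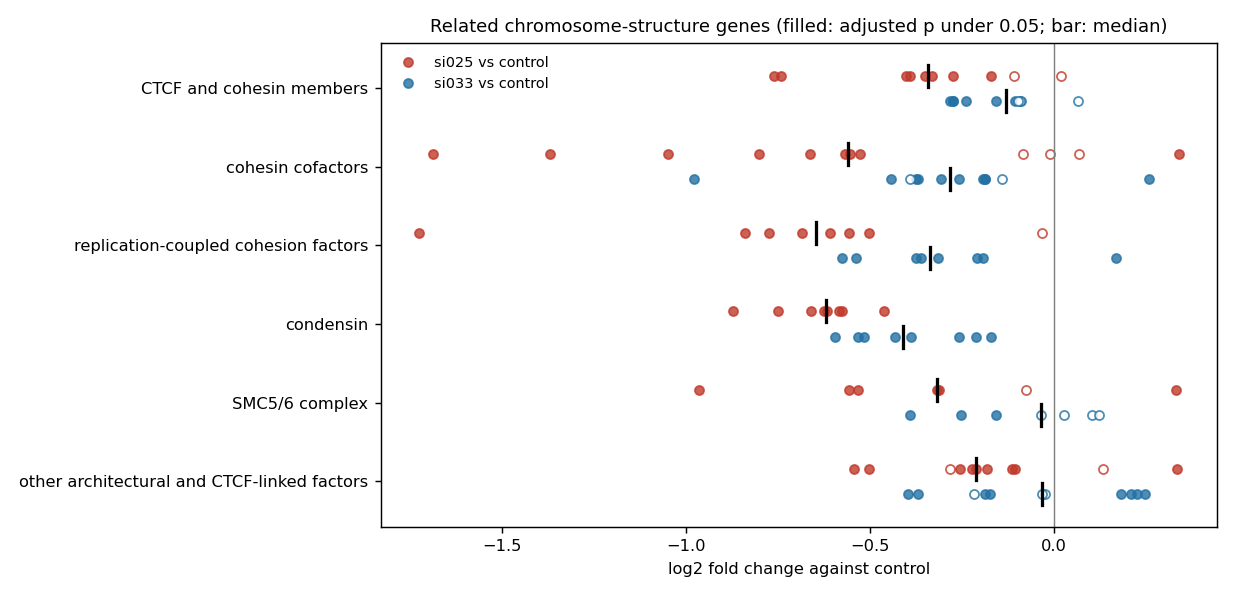
Log2 fold change against control of the 10 CTCF and cohesin genes and of 5 lists of related genes, 1 point per gene, red for si025 and blue for si033, filled where the adjusted *p* value was under 0.05, with a bar at the median of each list. All condensin points are filled and to the left of 0 with both siRNAs, while the last list lies on both sides of 0 with si033.

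The genes whose log2 CPM ran most like that of *CTCF* over the 9 libraries, among genes of at least 10 CPM, were *ZNF749*, *MCM5*, *SORT1*, *XPO5* and *GLI3*, with Pearson's r between 0.988 and 0.989. Those most like *SMC1A* were *GART*, *CNTRL*, *NAA15*, *FIGNL1* and *TICRR*, with r between 0.995 and 0.996. The libraries fall into 3 groups and share their normalization, so these values describe likeness of the group pattern and no test was attached to them.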

How the data were processed

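The authors aligned reads to hg38 with HISAT2 2.1.0 and made the deposited counts with featureCounts 1.5.2, per the labels and file headers: whole-number read pairs per gene, on the sense strand, with no normalization. The headers name a RefSeq annotation and the methods name GENCODE. By its default, the program leaves out read pairs with several alignments. Libraries were grouped by their titles, 3 per group.

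Counts were tested with edgeR 4.0.16 (R 4.3.3), quasi-likelihood, TMM and the default expression filter. A single fit held all 9 libraries with a mean for each of 3 groups, and *p* values were adjusted by Benjamini-Hochberg over 12810 genes. The biological coefficient of variation was 4.13%. The fit was tested on simulated counts. Standard errors and 95% intervals were derived from the F statistic of each fold change. CPM per kb used the exon length in the files. Ratios were tested by exact permutation (SciPy 1.17.1). Counting errors and depth cover sampling of reads only.

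Alternatives were size factors (RLE), upper quartile, no filter, DESeq2 1.42.0, limma-voom 3.58.1, a replicate block, offsets for length and GC content, only the groups compared, and each library left out. Those for the related gene lists were chosen after seeing the data. The members, lists and tests were chosen with earlier results of these data known. Named genes were all members, up to 3 called genes of largest change per list and siRNA, and the 5 most like *CTCF* and *SMC1A*. *HDAC8*, *CHTF8*, *NSMCE1*, *LDB1* and *ZNF143* were named outside this rule, after their values were known.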

Additional observations from a re-analysis of the deposited data

Results flagged for a closer look

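The siRNAs are aimed at the same transcript, and a gene is given here where their effects differed in the direct test of si025 against si033 (edgeR quasi-likelihood test, Benjamini-Hochberg adjusted over all genes). As 60.9% of all genes differed in that test, such a difference is common in these libraries.

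Of the 10 members, 7 differed. The log2 difference, si025 minus si033, was -0.30 for *CTCF*, -0.47 for *SMC1A*, -0.83 for *SMC3*, -0.23 for *RAD21*, -0.16 for *STAG2*, 0.29 for *NIPBL* and -0.25 for *PDS5B*. *STAG2* was not called without si033 replicate 3.

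Of the 23 genes of the related lists named by the rule of largest change, 19 differed. These genes were named for a large change against control in these same libraries. Their count therefore cannot be set against the share over all genes. Among cohesin cofactors the log2 difference was -0.68 for *ESCO2*, -0.18 for *SGO1*, 0.41 for *SGO2*, -1.55 for *STAG3*, -0.98 for *SMC1B* and 0.43 for *REC8*. Among replication-coupled factors and condensin it was -0.40 for *DDX11*, -1.37 for *WDHD1*, -0.26 for *CLSPN*, -0.27 for *SMC2*, -0.34 for *NCAPD2* and -0.23 for *NCAPG*. Among SMC5/6 genes and other architectural factors it was -0.28 for *SMC5*, -0.16 for *SMC6*, -1.09 for *SLF2*, -0.43 for *YY1*, -0.15 for *TOP2A*, -0.33 for *NPM1* and 0.26 for *PARP1*. The calls of *REC8* (adjusted p = 0.0447, lost under 11 of 17 alternatives) and *SMC6* (adjusted p = 0.0464, lost under 8 of 17 alternatives) were the least stable of these. The call of *SMC1B* was lost under 2 alternatives and that of *SGO1* without si025 replicate 1. Among the genes named outside the rule, the log2 difference was -0.46 for *LDB1*, 0.37 for *NSMCE1* and -0.20 for *CHTF8*, all called. *HDAC8* and *ZNF143* were not called. The direct differences of these genes were not tried under the alternatives.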

How the results depend on the processing

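Over 17 alternatives the count of called members ranged from 8 to 9 with si025, from 4 to 9 with si033 and from 6 to 8 between the siRNAs, beside 8, 6 and 7. The si033 count was 4 without si033 replicate 1 and 9 with offsets for length and GC content. The count over all genes moved as well. It was 6707 of 13087 without that replicate and 7743 of 12810 with the offsets, beside 7015 of 12810. The correlation of same-numbered deviations was -0.13 to 0.27 over 9 pairs, and libraries of different number were not compared in this way. Depth rose with replicate number in each group. Whether replicate numbers pair the libraries was therefore not settled. With the replicate block, *WAPL* was also called with si025 (-0.11, adjusted p = 0.0488), and the other member calls did not change.

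Signs reversed in some values that were not called. *NIPBL* with si025 was -0.034 with the offsets and -0.048 to 0.092 with a library left out. *STAG1* between the siRNAs was -0.0013 with RLE, -0.0016 with DESeq2, -0.050 with the offsets and -0.016 to 0.041 with a library left out. *WAPL* between the siRNAs was -0.021 with the offsets. *REC8* with si025 was 0.012 with upper quartile scaling and -0.11 to 0.14 with a library left out, and *STAG3* with si033 was -0.28 to 0.22, positive without control replicate 3. *NSMCE1* with si033 was -0.065 to 0.014, positive without control replicate 1. Called SMC5/6 genes with si033 ranged from 1 to 3. The cause of these changes was not tested. All 60 ratio values moved by less than the spread of replicates when a library was left out. Leaving out 1 of 3 libraries cannot move a mean by more than that spread. This outcome was therefore fixed in advance and does not show that the ratios are stable.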
